A study of Homo sapiens with 26 samples.

Results

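The genes described here are the regulators of the NRF2 antioxidant pathway: NFE2L2, which encodes NRF2, its relative NFE2L1, the inhibitor KEAP1 with its partner CUL3, the repressors BACH1 and BACH2, and the small MAF genes MAFF, MAFG and MAFK. They were chosen by name, with earlier results of these data known. Every probe set that the platform annotation gives to 1 of these genes alone was taken. That gave 19 probe sets for 8 of the 9 genes, out of 54613 probe sets and 19775 genes in the series. MAFK had no such probe set in the annotation used and was not analysed here. Of the 19 probe sets, 14 passed the filter on low signals and entered the fit of 35013.

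The series profiled total RNA of 786-O cells, a human clear cell renal carcinoma line, on Affymetrix U133 Plus 2.0 arrays. The groups used were cells given compound 40, 41, 76 or 77, all 4 described as HIF-2a inhibitors from a chemical genetic screen, cells mock treated with DMSO, and untreated cells (Blk), with 3 arrays each. Blk and the compound numbers were assigned by elimination, because the titles name the groups and the series text names the treatments. The titles also give the groups WT8 and PRC3, with 3 arrays each, and the single arrays pTR and pTV. The labels do not say what those 4 names stand for, nor do they give doses or times of treatment, so the compounds may differ in dose or time. All groups share the 1 cell line, and no label states that the 3 arrays of a group are separate cultures. The p-values rest on the spread among these arrays alone, and that spread may be technical.

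NRF2 is a transcription factor that KEAP1 and the scaffold CUL3 hold at a low level by marking it for degradation. Electrophiles and oxidants modify KEAP1, and NRF2 then accumulates, pairs with a small MAF protein and switches on detoxification and glutathione genes at antioxidant response elements. BACH1 and BACH2 are heme-sensitive repressors that pair with the same small MAFs at the same elements, and NFE2L1 is a relative held in the endoplasmic reticulum that drives proteasome genes. NRF2 is controlled largely at the protein level, which these arrays do not measure.

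The core of the antioxidant response element is usually written TGACNNNGC, where N is any base. It was searched on both strands of RefSeq promoter windows of GRCh38.p14, which run from 250 bases before to 50 bases after each gene start. All 8 genes with probe sets had windows, 15 in all, and 2 of these 15 (13.3%) held a match, in KEAP1 and MAFF. Over all windows of this length 4687 of 35116 (13.3%) held one, and over 26 windows of listed NRF2 target genes 8 (30.8%) did. The matches in KEAP1 and MAFF are shown with 6 bases on each side, beside those of GCLM, a subunit of the enzyme that starts glutathione synthesis, and of EPHX1, an epoxide hydrolase. The lines read in the direction of the motif, and capitals mark the match.
KEAP1, first match: ttattgTGACACGGCgggcgc
KEAP1, second match: tcaccaTGACTAAGCagagcc
MAFF: cccgtaTGACCCCGCcccctg
GCLM: agacaaTGACTAAGCagaaat
EPHX1: attggcTGACTTGGCaggact
KEAP1 lies on the minus strand. Its first match is at chr19:10502811-10502831 on the gene's own strand and begins 54 bases before the start, and its second is at chr19:10502788-10502808 on the opposite strand, 31 bases before the start. Both lie within the annotated KEAP1 gene, which spans 10486125 to 10503356, so the start of this window is one inside the gene span. The second has the same 9 letters as the match in GCLM, at chr1:93909450-93909470, also on the strand opposite to its gene. The MAFF match is at chr22:38201866-38201886, upstream of the gene on its opposite strand, and the EPHX1 match at chr1:225825270-225825290, within the gene and on its own strand. A match is a description of the letters and does not show a site in use.

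Between arrays, the 2% trimmed mean signal ran from 79.9 to 95.4 before normalization. In the columns of replicates 2 and 3 of compound 40 all 54675 values were distinct, against 5611 to 7831 distinct values on the other arrays. They are called differently made below for that form alone. No label states how they were made, and the cause was not settled. The library of WT8 replicate 3 stood apart in its ratios of 3' to 5' probe sets, a sign of shorter RNA. Its ACTB ratio was 2.37, where no other array passed 1.39, and its GAPDH ratio was 1.32, where no other passed 1.06. Calls that rest on these arrays are given without them as well. Of 10 renal epithelial and clear cell carcinoma markers, 8 had probe sets and all 8 passed the filter, with a summed signal of 11561 to 13499 per array. VIM alone gave 7208 to 8708 of it. GGT1 was near the floor, with a median of 25.9, and PAX2 ran from 22.1 to 177. The summed leukocyte markers stayed between 104 and 151, with PTPRC and CD14 at the floor on every array. The endothelial ones stayed between 107 and 177, with VWF at the floor. CD79A, a leukocyte marker, ran from 43.7 to 85.8 and PECAM1, an endothelial one, from 45.5 to 117, both above the floor on every array.

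Signals below are quantile normalized on a linear scale with a floor of 20, in the order of replicates 1, 2 and 3. A change is a difference of mean log2 signals, and it was called where the adjusted p of limma, by Benjamini-Hochberg over all 35013 probe sets, was under 0.05. Of the 14 probe sets in the fit, 2 rose with compound 41 and 2 with compound 76, those of KEAP1 and MAFG in both. Among all probe sets, 1.17% rose with compound 41 and 0.748% with compound 76. With compounds 40 and 77 none of the 14 was called, where 0.685% and 0.171% of all probe sets were. In each, 3 of the 14 had an unadjusted p under 0.05, as had 4090 and 2672 of all 35013. Those 3 include, with either compound, a BACH2 probe set at or near the floor. In WT8 against PRC3, 2 of the 14 fell, both of NFE2L1, where 2.21% of all probe sets fell. The comparisons of the 4 compounds share the same DMSO arrays, so they are not independent of each other. In bulk RNA, fewer cells with a transcript and less of it per cell cannot be told apart.

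**Figure D1:**
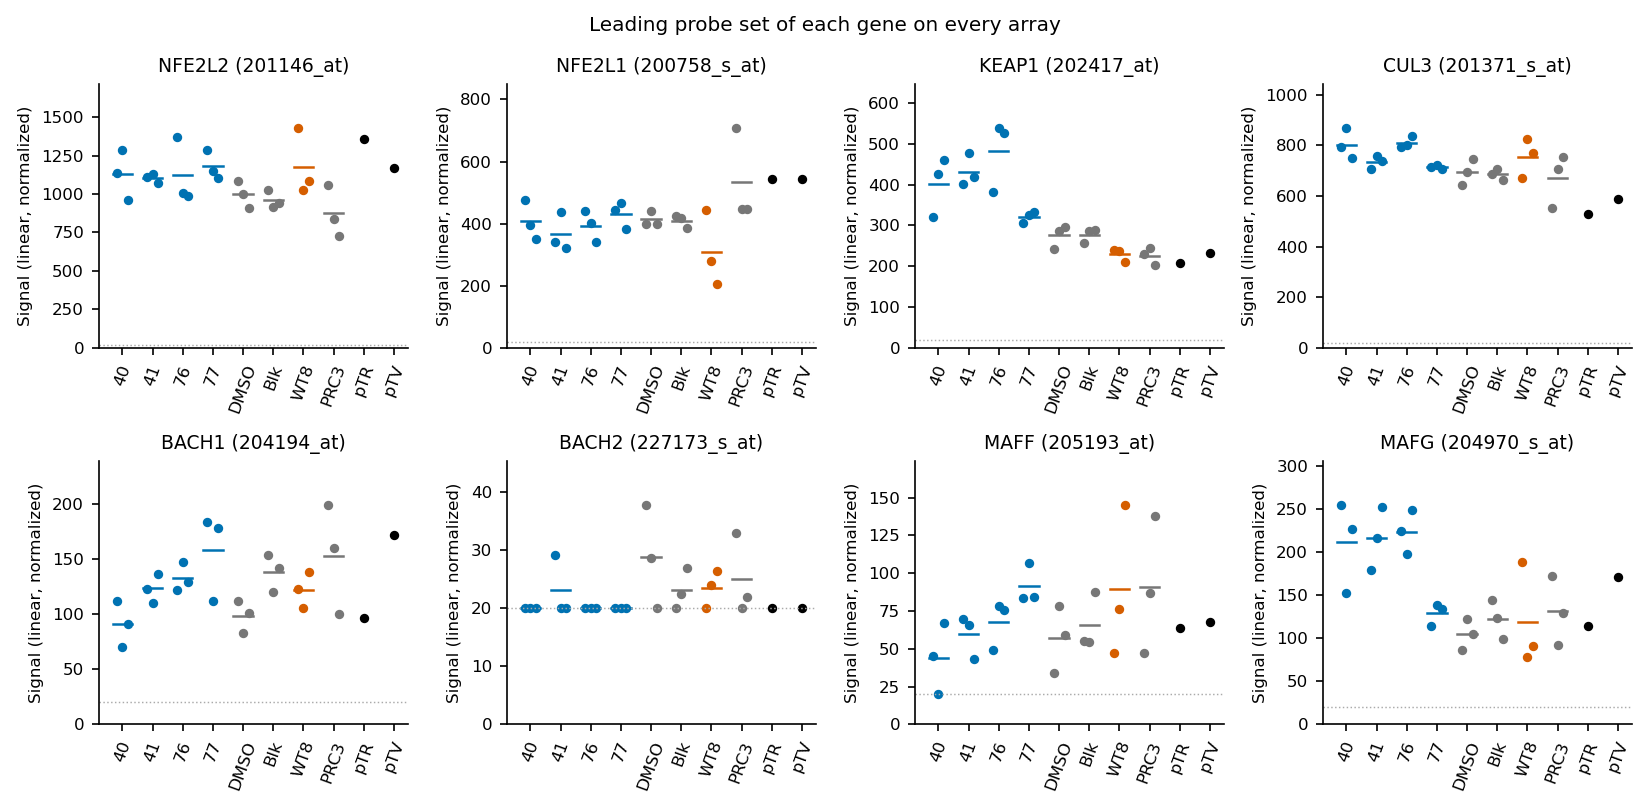
Signal of the leading probe set of each gene on all 26 arrays, on a linear axis from 0, by group. Points are arrays in the order of replicates 1 to 3, bars are group means and the dotted line is the floor of 20. KEAP1 and MAFG stand highest with compounds 40, 41 and 76, and the group means of NFE2L2 run from 876 in PRC3 to 1181 with compound 77.

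KEAP1 is the sensor of the pathway and its brake. Its 1 probe set gave 401, 477 and 418 with compound 41 and 381, 538 and 526 with compound 76, against 243, 286 and 297 with DMSO. The arrays of either compound all lay above all DMSO arrays. The mean was 432 ± 39.9 with compound 41 and 481 ± 87.3 with compound 76, against 275 ± 28.5 with DMSO (SD, n = 3 each). KEAP1 rose 1.57-fold with compound 41 (log2 change 0.65, 95% interval 0.34 to 0.96, limma adjusted p = 0.0170) and 1.73-fold with compound 76 (log2 change 0.79, interval 0.48 to 1.10, adjusted p = 0.00502). Without any 1 array the call with compound 76 held, at adjusted p of 0.00129 to 0.0495. The call with compound 41 was lost without DMSO replicate 1 (adjusted p = 0.111), without replicate 2 of compound 41 (adjusted p = 0.0877) and without its replicate 3 (adjusted p = 0.0523).

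With compound 40 KEAP1 had signals of 320, 427 and 460, again all above the DMSO arrays, with a mean of 402 ± 73.4 (SD, n = 3). The fold was 1.45 (log2 change 0.53, interval 0.22 to 0.84), and its limma adjusted p of 0.110 did not pass the threshold. The higher signals are those of the 2 columns made differently. Without both, the log2 change was 0.22 (adjusted p = 0.963), and without replicate 1 it was 0.69 and was called (adjusted p = 0.0220). Blocking on replicate number gave an adjusted p of 0.0359, though the numbers did not pair the samples of compound 40 and DMSO.

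With compound 77 KEAP1 had 305, 326 and 332, which also did not overlap with DMSO, and a mean of 321 ± 13.9 (SD, n = 3). The fold of 1.17 (log2 change 0.23, interval -0.08 to 0.54) was not called (limma adjusted p = 0.809). In untreated cells KEAP1 had 258, 287 and 288, which overlap the DMSO arrays, at a log2 change of -0.02 for DMSO against Blk. WT8 had 240, 237 and 211, against 229, 244 and 203 in PRC3, which overlap each other. By mean the order was 76, 41, 40, 77, Blk, DMSO, WT8 and PRC3. Neighbours in that order overlapped except at the steps between 77 and Blk and between DMSO and WT8.

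MAFG encodes a small MAF protein, which lacks an activating domain and serves as DNA-binding partner for NRF2 and for the BACH proteins. The probe set that passed the filter gave 179, 217 and 252 with compound 41 and 225, 198 and 248 with compound 76, against 86.4, 123 and 105 with DMSO. All arrays of both compounds lay above all DMSO arrays. MAFG rose 2.06-fold with compound 41 (log2 change 1.05, interval 0.48 to 1.62, limma adjusted p = 0.0417) and 2.15-fold with compound 76 (log2 change 1.11, interval 0.54 to 1.68, adjusted p = 0.0440). Both calls lay close to the threshold. Leaving out any 1 of the 6 arrays ended each call, with adjusted p of 0.0617 to 0.186 for compound 41 and 0.0703 to 0.209 for compound 76, while the log2 changes stayed between 0.92 and 1.23.

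With compound 40 MAFG had 255, 152 and 227, also above the DMSO arrays, and the 1.99-fold difference (log2 change 0.99, interval 0.42 to 1.56) was not called (limma adjusted p = 0.105). Here the differently made columns held the lower signals, and without both the log2 change was 1.30 (adjusted p = 0.358). With compound 77 the signals of 115, 139 and 134 overlapped those of DMSO, at a log2 change of 0.31 (interval -0.26 to 0.88). Untreated cells had 144, 123 and 99.0. WT8 had 188, 77.7 and 90.7, against 172, 92.1 and 129 in PRC3, so that replicate 1 was the highest array in both groups. By mean, every group overlapped its neighbour in the order 76, 41, 40, PRC3, 77, Blk, WT8 and DMSO. The other MAFG probe set, 224466_s_at, was at the floor on all 26 arrays.

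**Figure D2:**
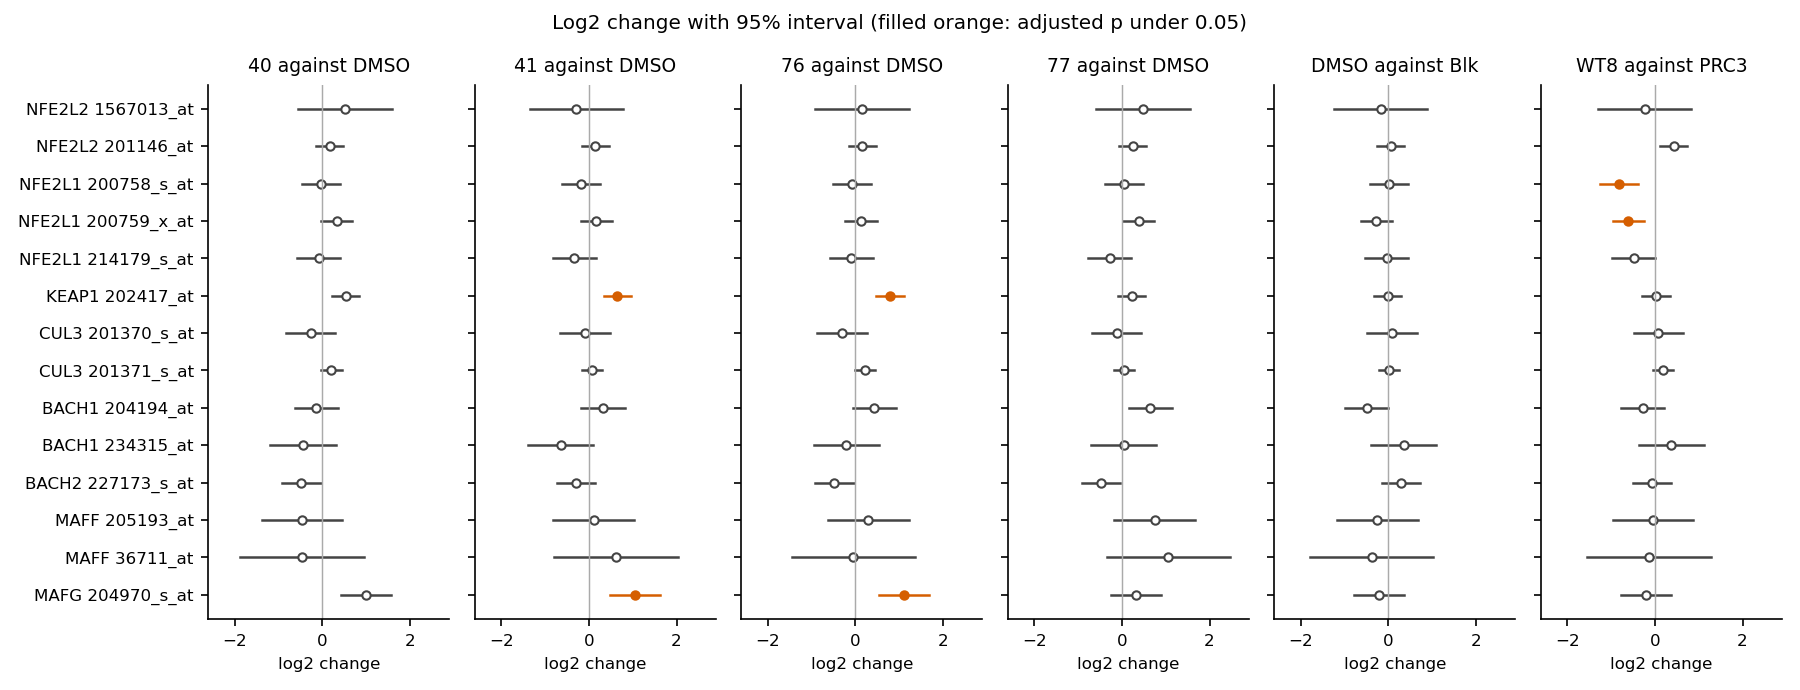
Log2 change of the 14 probe sets in 6 comparisons, with 95% intervals from the fit on 24 arrays. Filled orange points were called: KEAP1 and MAFG with compounds 41 and 76, and 2 probe sets of NFE2L1 in WT8 against PRC3.

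NFE2L2, the NRF2 gene itself, had its leading probe set among the bright ones. Its signals were 1140, 1284 and 964 with compound 40, 1113, 1133 and 1068 with compound 41, and 1370, 1005 and 988 with compound 76. With compound 77 they were 1288, 1148 and 1107, against 1084, 1002 and 907 with DMSO and 1029, 918 and 939 in untreated cells. The arrays of compounds 40, 41 and 76 overlapped those of DMSO, and the arrays of compound 77 lay just above them. The log2 changes against DMSO ran from 0.15 with compound 41 (interval -0.16 to 0.46) to 0.24 with compound 77 (interval -0.07 to 0.55), and none was called by limma. The upper ends of all 4 intervals lie at or below 0.55 on the log2 scale.

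In WT8 NFE2L2 had 1427, 1024 and 1085, against 1059, 839 and 730 in PRC3. WT8 was higher in each numbered pair, but the groups overlapped. The 1.35-fold difference (log2 change 0.43, interval 0.12 to 0.74) had a limma adjusted p of 0.115. In these groups the replicate numbers paired the samples by the rule used. The block, however, was replicate number over all 24 arrays, and not a pairing of these 2 groups alone. With that block the same difference was called (SE 0.11, limma adjusted p = 0.0185), also without WT8 replicate 3 (log2 change 0.41, adjusted p = 0.0495). Without the block it was called when PRC3 replicate 1 was left out (log2 change 0.57, adjusted p = 0.0377). The dimmer NFE2L2 probe set 1567013_at had group means of 47.3 to 89.1 and no call, and 1567015_at was at the floor on every array.

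CUL3 builds the ubiquitin ligase around KEAP1. Its leading probe set ranged from 551 to 867 over the 24 arrays and gave means of 803 ± 59.2 with compound 40, 733 ± 27.1 with compound 41, 809 ± 23.4 with compound 76 and 715 ± 7.90 with compound 77, against 694 ± 50.9 with DMSO (SD, n = 3 each). The log2 changes of 0.21, 0.08, 0.22 and 0.04 were not called. Its second probe set, 201370_s_at, stayed between 40.6 and 82.9 with no call, and the third was at the floor on every array. CUL3 showed no call beside the rise of KEAP1, its partner, with compounds 41 and 76.

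NFE2L1 had 2 probe sets called in WT8 against PRC3. Its leading probe set, 200758_s_at, gave 444, 280 and 206 in WT8, against 707, 447 and 448 in PRC3. The highest WT8 array lay just below the lowest PRC3 array, so the groups did not overlap, and WT8 was lower in each numbered pair. The difference was 1.77-fold lower in WT8 (log2 change -0.82, interval -1.25 to -0.39, limma adjusted p = 0.0216).

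A second probe set, 200759_x_at, gave 389, 331 and 292 in WT8, against 631, 453 and 460 in PRC3, again without overlap. It was 1.52-fold lower in WT8 (log2 change -0.60, interval -0.96 to -0.24, limma adjusted p = 0.0464). The third, 214179_s_at, gave 284, 171 and 200 in WT8 and 361, 300 and 245 in PRC3, which overlap, and its log2 change of -0.48 (interval -0.97 to 0.01) was not called (adjusted p = 0.330). All 3 probe sets thus lay lower in WT8 on average, and 2 of the 3 passed. They read the same gene and are not independent replicates.

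The call of 200758_s_at was lost without WT8 replicate 3 (log2 change -0.56, limma adjusted p = 0.148), the library with the high 3' to 5' ratios, and without PRC3 replicate 1 (-0.60, adjusted p = 0.141) or WT8 replicate 2 (-0.78, adjusted p = 0.0873). The call of 200759_x_at was lost without WT8 replicate 3 (-0.50, adjusted p = 0.173), PRC3 replicate 1 (-0.45, adjusted p = 0.219), WT8 replicate 2 (-0.59, adjusted p = 0.131), PRC3 replicate 2 (-0.69, adjusted p = 0.0545) or PRC3 replicate 3 (-0.67, adjusted p = 0.0518). The part of RNA length in these differences was not tested beyond that. The fit also shares 1 spread over the 8 groups. For 200758_s_at the SD was 122 in WT8 and 150 in PRC3, against 22.1 in Blk to 62.7 with compound 40 elsewhere. With WT8 and PRC3 fitted alone, neither probe set was called (limma adjusted p of 0.446 for 200758_s_at and 0.278 for 200759_x_at). Untreated cells had 426, 419 and 385 for 200758_s_at, between the means of WT8 and PRC3. With the compounds this probe set averaged 367 to 431, against 414 ± 24.3 with DMSO (SD, n = 3), and no NFE2L1 probe set was called with any compound.

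**Figure D3:**
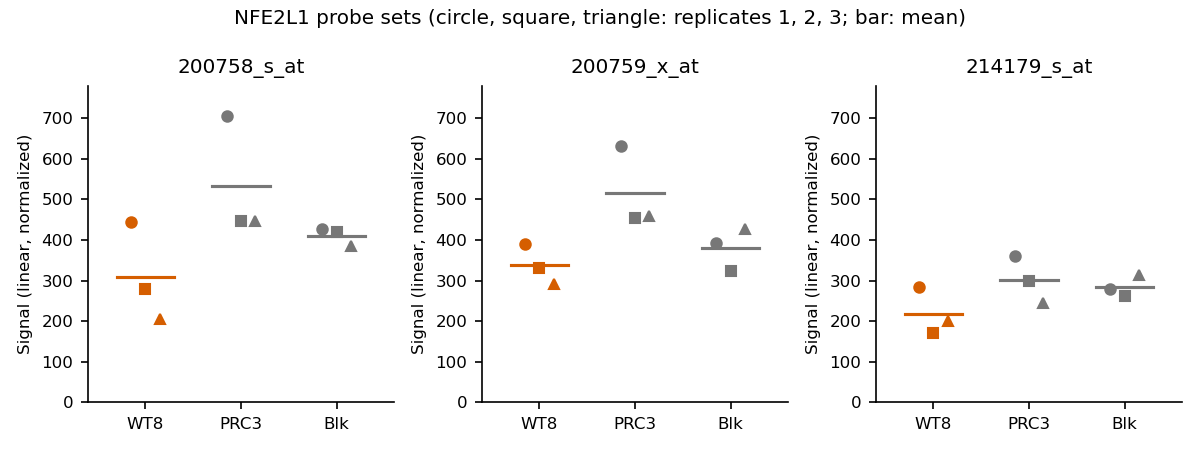
Signals of the 3 NFE2L1 probe sets that passed the filter, on a linear axis from 0, in WT8, PRC3 and untreated cells (Blk). Markers give replicates 1 to 3 and bars the means of 3 arrays. WT8 lies below PRC3 without overlap in 200758_s_at and 200759_x_at, and overlaps it in 214179_s_at.

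BACH1 competes with NRF2 for small MAFs and is released from DNA when heme binds it. Its leading probe set gave 112, 69.9 and 90.9 with compound 40, 123, 110 and 137 with compound 41, and 122, 147 and 129 with compound 76. With compound 77 it gave 184, 112 and 179, against 112, 83.2 and 102 with DMSO and 154, 120 and 142 in untreated cells. DMSO lay below untreated cells, at a log2 change of -0.49 that limma did not call. The difference of compound 77 from DMSO, 1.57-fold (log2 change 0.65, interval 0.16 to 1.15), was not called either (adjusted p = 0.438), and the signals with compound 77 overlapped those of untreated cells. WT8 had 123, 106 and 138, against 199, 160 and 101 in PRC3, which overlap. The probe set 234315_at stayed at or below 54.1 on every array and 234938_at was at the floor throughout.

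BACH2, a repressor known mainly from B cells, was at or near the floor. Its leading probe set stood at 20 on 17 of the 26 arrays and reached 37.7 on DMSO replicate 1 at most. All arrays of compounds 40, 76 and 77 were at the floor, against 37.7, 28.5 and 20 with DMSO, so no order can be read there. The other BACH2 probe set was at the floor on 25 arrays.

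MAFF, a stress-inducible small MAF, was dim and varied widely between arrays. Its leading probe set gave 83.7, 107 and 84.1 with compound 77, against 34.0, 78.3 and 59.1 with DMSO. These did not overlap, but the log2 change of 0.75 had an SE of 0.44 and was not called by limma (adjusted p = 0.763). In WT8 it gave 47.0, 76.6 and 145, against 47.1, 87.0 and 138 in PRC3, a wide spread within each group and nearly the same values in both. The second probe set, 36711_at, gave 26.3, 41.0 and 222 in WT8, against 23.0, 67.3 and 206 in PRC3. Both MAFF probe sets were thus highest in replicate 3 of either group. With compound 40 the second probe set was at the floor on all 3 arrays.

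DMSO was set against untreated cells to measure the vehicle. No member was called, none of the 14 probe sets had an unadjusted p under 0.05, and 0% of all probe sets were called by limma, while 794 of the 35013 had an unadjusted p under 0.05.

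The compounds were then compared with each other in 6 pairs, with p adjusted over all probe sets and all 6 pairs. No member was called in any pair, and over the 6 pairs together 0.337% of all probe sets were. KEAP1 was higher with compound 76 than with 77 by 0.57 on the log2 scale (interval 0.26 to 0.88, limma adjusted p = 0.129) and higher with compound 41 than with 77 by 0.42 (interval 0.11 to 0.73, adjusted p = 0.325). MAFG was higher by 0.79 with compound 76 than with 77 (interval 0.22 to 1.36, adjusted p = 0.316) and by 0.73 with compound 41 than with 77 (interval 0.16 to 1.30, adjusted p = 0.376). MAFG was also lower with compound 77 than with 40, by a log2 difference of -0.68 (interval -1.25 to -0.11, adjusted p = 0.432), without overlap between the arrays. BACH1 had log2 differences of 0.79 between 77 and 40 (interval 0.30 to 1.28) and 0.57 between 76 and 40 (interval 0.07 to 1.06), and the leading MAFF probe set one of 1.21 between 77 and 40 (interval 0.29 to 2.13). In all, 9 of the 84 intervals of the 14 probe sets leave out 0, and none passed the adjustment. An interval without 0 is an unadjusted limma p under 0.05. Of all 35013 probe sets, that held for 4152 in 41 against 40, 3302 in 76 against 40 and 3920 in 77 against 40. It held for 1927 in 41 against 76, 2961 in 41 against 77 and 2514 in 76 against 77. Compounds 41 and 76 differed by -0.14 for KEAP1 (41 minus 76, interval -0.45 to 0.17) and by -0.06 for MAFG (interval -0.63 to 0.51), which leaves room for differences of either sign. The calls with 41 and 76 and their absence with 40 and 77 are therefore not shown to differ for KEAP1 or MAFG.

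**Figure D4:**
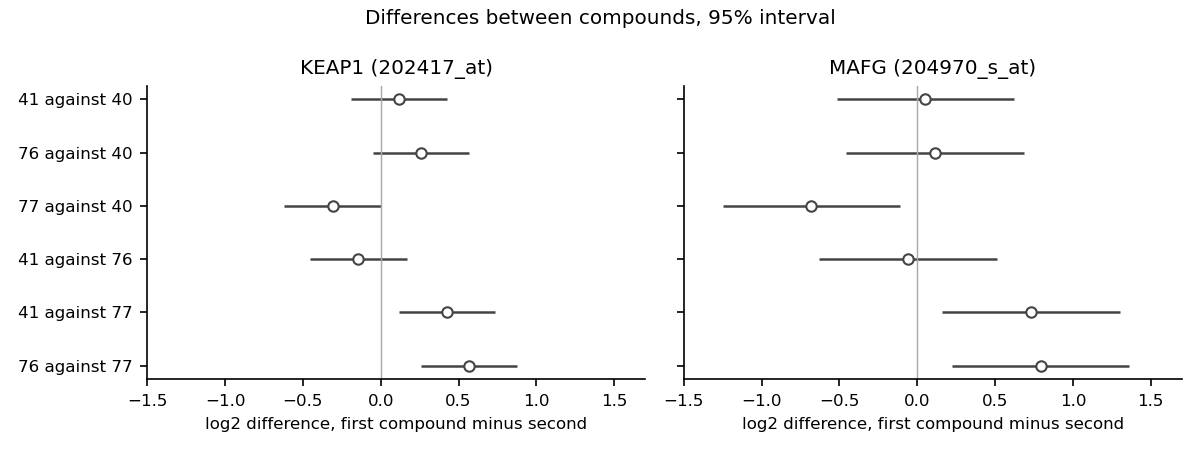
Log2 differences of KEAP1 and MAFG between the compounds, first minus second, with 95% intervals. The intervals of 41 and 76 against 77 lie above 0, that of MAFG in 77 against 40 lies below 0, the others span 0, and none of the 12 differences passed the adjusted threshold.

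Around the members, the other factors of the pathway were counted by gene, each through its brightest single-gene probe set. Of 23 measured partners and turnover factors of NRF2, 1 rose with each of compounds 40, 41 and 76, and it was SQSTM1 each time. SQSTM1 encodes p62, an autophagy receptor that binds KEAP1 and is itself a known NRF2 target. It averaged 1950 ± 241 with compound 40, 2389 ± 394 with compound 41 and 2400 ± 227 with compound 76, against 1110 ± 178 with DMSO (SD, n = 3 each), or 1.76-fold, 2.15-fold and 2.18-fold higher (limma adjusted p of 0.0397, 0.00135 and 0.00150). Of all genes 0.437%, 1.71% and 1.02% rose in those comparisons. With compound 77 SQSTM1 averaged 1202 ± 117 and was not called. Without the 2 differently made columns the rise with compound 40 was 2.02-fold and not called (adjusted p = 0.240).

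Of 4 measured BACH1 turnover factors, 2 were called with compound 41, where 3.34% of all genes were, and none with the other 3 compounds. FBXO22, the ubiquitin ligase subunit that marks BACH1, rose 1.66-fold with compound 41 to 353 ± 30.8, against 214 ± 32.3 with DMSO (limma adjusted p = 0.0103). RBCK1, known as HOIL-1, fell to 603 ± 18.3 with compound 41, against 1264 ± 238 with DMSO, which is 2.07-fold lower (adjusted p = 0.00477). In WT8 against PRC3, 3 of the 23 partners and turnover factors were called, and 5.97% of all genes. SKP1, a ubiquitin ligase adaptor, was 1.29-fold higher, NEDD8, which activates cullins, was 1.91-fold lower, and the large MAF gene MAF was 1.86-fold lower (log2 change -0.89, limma adjusted p = 0.0174). Without WT8 replicate 3, NEDD8 and MAF were still called (adjusted p of 0.0473 and 0.0420) and SKP1 was not (adjusted p = 0.0750).

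None of 5 measured NFE2L1 processing factors was called in any of the 6 comparisons, in which at most 5.97% of all genes were. Of 27 measured proteasome subunits, the targets for which NFE2L1 is known, PSMC4 rose with compound 40 (1.59-fold) and compound 76 (1.57-fold), where 0.437% and 1.02% of all genes rose, and none was called with compound 41 or 77. In WT8 against PRC3, where NFE2L1 itself fell, 1 of the 27 fell, PSMC1 (1.31-fold lower, limma adjusted p = 0.0392), while 2.71% of all genes fell, and the median log2 change of the 27 was 0.14, against 0.01 over all genes. Without the differently made columns PSMC4 with compound 40 was 1.52-fold higher and not called (adjusted p = 0.612), and without WT8 replicate 3 the adjusted p of PSMC1 was 0.0693.

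The listed NRF2 target genes, 28 of them measured, were counted in the same comparisons. Their list, too, was chosen with earlier results of these data known. With compound 40, 18 rose, with compound 41 22, with compound 76 21 and with compound 77 2, NQO1 and PTGR1, and none fell in these 4 comparisons. Their median log2 changes were 0.81, 1.34, 1.58 and 0.19, while the medians over all genes were at most 0.01. Of all genes 0.437% rose with compound 40, 1.71% with compound 41, 1.02% with compound 76 and 0.139% with compound 77. The count with compound 40 was 4 without the 2 columns made differently, and 10 without DMSO replicate 2 or without replicate 2 of compound 40. With median scaling it was 10. With only the 2 groups of a comparison in the fit, the counts were 2 for compound 40 and 0 for compound 77, against 18 for compound 41 and 16 for compound 76. The list includes the AKR1C genes, whose near-identical sequences let probe sets read each other's transcripts.

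HMOX1, the heme oxygenase and best known BACH1 target, rose 28.5-fold with compound 76 (limma adjusted p = 2.09e-10), against the 1.73-fold of KEAP1 and 2.15-fold of MAFG. It averaged 2685 ± 998 with compound 76 and 90.6 ± 16.7 with DMSO (SD, n = 3 each). The mean was much the same with compound 41 (2684 ± 839), and it was 844 ± 350 with compound 40 and 110 ± 18.8 with compound 77. GCLM rose 3.02-fold with compound 76 and 2.67-fold with compound 41, and with compound 77 its mean was 954 ± 12.6, against 1014 ± 116 with DMSO. It is named for the 9 letters that its window shares with one of KEAP1, and a role of that match was not tested. MAFG rose with no match in its window, and MAFF had a match and no call. In WT8 against PRC3, 4 of the 28 rose, AKR1C3 (4.19-fold), PTGR1 (2.00-fold), CBR1 (1.80-fold) and GCLM (1.41-fold), where 3.26% of all genes rose. That count was 4 without WT8 replicate 3, 2 without PRC3 replicate 1 or with median scaling, and 0 with the 2 groups fitted alone.

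**Figure D5:**
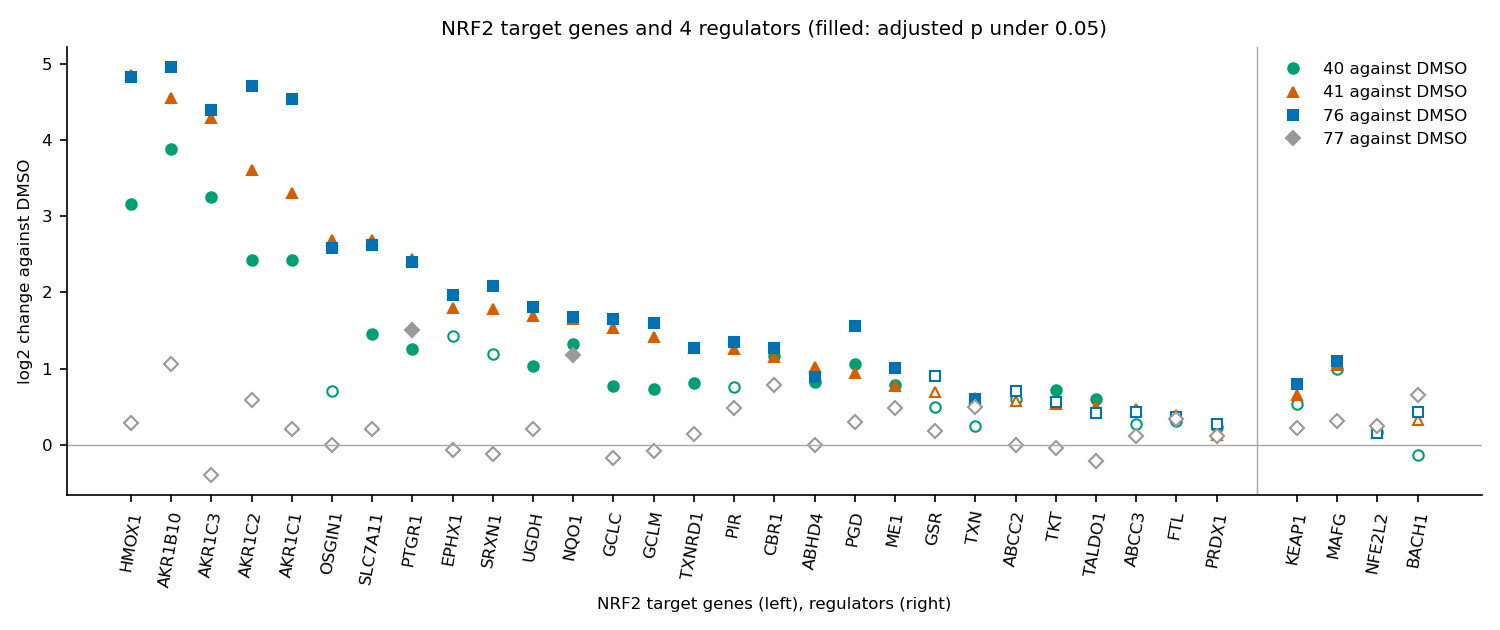
Log2 change against DMSO of the 28 measured NRF2 target genes, left of the line, and of KEAP1, MAFG, NFE2L2 and BACH1, right of it, for compounds 40, 41, 76 and 77. Filled markers were called. The target genes reach log2 changes near 5, and NFE2L2 stays within 0.24 of DMSO.

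Between the compounds, the direct test called target genes where it called no member. Of the 28, 15 were higher with compound 41 than with 77 and 16 higher with compound 76 than with 77, where 0.384% and 0.443% of all genes were higher. Another 12 were lower with compound 77 than with 40, where 0.245% of all genes were lower. Against compound 40, 5 were higher with compound 41 (0.45% of all genes) and 7 with compound 76 (0.192%). Without the differently made columns of compound 40, those counts against it were 3 for compound 77, 2 for compound 41 and 5 for compound 76. Between compounds 41 and 76 none was called, where 0.218% of all genes were, and the median log2 difference of the 28, 41 minus 76, was -0.12.

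Over the 24 replicated arrays and 10747 genes, the genes whose log2 signals followed KEAP1 most closely were TRIM16 (Pearson r = 0.94), CDK5RAP2 (0.91) and EMC3 (0.90). For MAFG they were EPHX1 (0.81), SQSTM1 (0.79) and ABHD4 (0.79). For NFE2L1 they were TPX2 (0.84), AJUBA (0.82) and WRAP73 (0.79). These correlations are descriptions over arrays that share groups and normalization.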

How the data were processed

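RNA of 26 samples was measured on U133 Plus 2.0 arrays. Each probe set has a deposited linear intensity per array, which MAS5 computed per the submitters' processing notes (version and scaling: not given in the sources used here). Per the labels, values were limited to between 20 and 16000 and little-varying genes removed, yet 646373 of the deposited intensities are below 20 and all 54675 probe sets are present, so neither step is in the table.

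Without 62 control probe sets, the intensities were quantile normalized, limited to 20 and 16000, and put on the log2 scale. A probe set stayed in if it reached the array median on 3 or more of 24 arrays. Genes came from the platform annotation, checked by Entrez identifier against RefSeq GRCh38.p14 (41037 of 41091 single-gene probe sets found, 0 symbols changed). One limma fit (3.58.1, R 4.3.3, lmFit and eBayes with trend, 16 residual degrees of freedom) covered the 24 arrays of 8 groups, and pTR and pTV stayed out. The fit was tested on simulated data. The number of arrays limits the precision. Between 16.7% and 20.8% of kept values per array were at the floor.

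A gene's leading probe set is its single-gene one with the highest mean log2 signal. Named were all members, up to 4 called genes a list with the largest changes, and for members called in a comparison the 3 most correlated genes with under 3 arrays at the floor. HMOX1, and GCLM outside WT8 against PRC3, were chosen otherwise, for BACH1 and for the shared motif. The members and lists were chosen with earlier results of these data known. Identical columns numbered 0.

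Same-numbered replicates were taken as paired where all 3 correlations of their deviations from the group means passed 0.1. The lowest was 0.172 for 41 with DMSO, 0.184 for 76 with DMSO, 0.146 for DMSO with Blk, 0.107 for WT8 with PRC3 and 0.105 for 41 with 76. It was 0.0769 for 40 with DMSO and 0.0670 for 77 with DMSO, which do not pair, and the other pairs of compounds stayed below 0.1. Alternatives were the deposited scale, median scaling, no filter, a floor of 40, the 2 groups alone, the replicate block and leaving out each array. The main fit held no replicate effect, so comparisons that pair by this rule are reported unpaired there. The replicate block was an effect of replicate number shared by all 24 arrays, those of groups that do not pair included. Leaving out both differently made columns of compound 40, list genes without WT8 replicate 3, and the counts of target genes under every alternative, were added after the values were seen.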

Additional observations from a re-analysis of the deposited data

Results flagged for a closer look

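The direct test between compounds was counted over the listed NRF2 target genes, 28 of them measured. That list was chosen with earlier results of these data known. The number of them called was 16 in 76 against 77 and 15 in 41 against 77, all higher with 76 and 41. Of all genes, 0.443% and 0.384% were higher there. It was 12 in 77 against 40, all lower with 77, where 0.245% of all genes were lower. It was 7 in 76 against 40 and 5 in 41 against 40, all higher with 76 and 41. Of all genes, 0.192% and 0.45% were higher in those. The comparisons with compound 40 include its replicates 2 and 3, whose columns stood apart in holding only distinct values. Groups of 3 arrays are too small for a test of single outlying arrays.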

How the results depend on the processing

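The 6 called changes of members kept their sign in every alternative run, while 33 of the 78 uncalled ones changed sign in at least 1, the largest of them 0.46 in size as reported. As reported, member calls were 0, 2, 2, 0, 0 and 2 for 40, 41, 76 and 77 against DMSO, DMSO against Blk and WT8 against PRC3, and calls over all probe sets 240, 889, 474, 60, 0 and 1597. On the deposited scale the member calls became 0 for 41 and 1 for 76. With median scaling they became 1 for 41, and all calls 100 for 40, 513 for 41 and 27 for 77. With no filter they became 1 for 41, 1 for 76 and 0 for WT8 against PRC3, and all calls 149 for 40, 34 for 77 and 3 for DMSO against Blk. With the 2 groups fitted alone no member was called for 41, 76 or WT8 against PRC3 (0 each), and all calls were 6 for 40, 374 for 41, 126 for 76, 0 for 77 and 19 for WT8 against PRC3. With a floor of 40 the member calls became 1 each for 41, 76 and WT8 against PRC3, and all calls of DMSO against Blk 5. With the replicate block, all calls were 534 for 40, 1525 for 41, 849 for 76 and 175 for 77. Member calls rose to 1 for 40 and to 1 over the 6 pairs of compounds, KEAP1 in 76 against 77. Its limma adjusted p of 0.0339 was adjusted within that pair alone, where the main fit gave 0.131. With the block it was not adjusted over the 6 pairs together, and the numbers do not pair these samples. The 6 called changes of members stayed called with the block. For KEAP1 the limma adjusted p was then 0.00350 with compound 41 and 0.000778 with compound 76. For MAFG it was 0.0226 and 0.0224, and for NFE2L1 0.00291 (200758_s_at) and 0.0324 (200759_x_at). Beside these calls and the block results printed in the report, the block changed no call of a member. Without both replicates 2 and 3 of compound 40, 25 probe sets were called for 40, and the lone array was assumed to vary like the other groups. Leaving out 1 array gave 50 to 622 calls for 40, 419 to 685 for 41, 226 to 381 for 76, 15 to 125 for 77, 0 to 2 for DMSO against Blk and 1006 to 1869 for WT8 against PRC3. Member calls then ran from 0 to 1 for 40 and 41, were 1 for 76 throughout, 0 for 77 and DMSO against Blk, and 0 to 2 for WT8 against PRC3. Over the pairs they ran from 0 to 1, with each pair adjusted by itself. The cause of these shifts was not tested. A fit on fewer arrays has fewer degrees of freedom, and a fit on 2 groups takes its spread from those groups alone. Signals near the floor limit BACH2 and MAFF.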

Other observations

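The single arrays pTR and pTV belong in no replicated comparison and have no test. NFE2L2 had a signal of 1360 in pTR and 1171 in pTV for its leading probe set, and 20.3 in pTR and 80.5 in pTV for 1567013_at. KEAP1 had 208 in pTR and 233 in pTV, and MAFG 114 in pTR and 171 in pTV. BACH1 had 96.3 in pTR and 173 in pTV, a log2 difference of -0.84. NFE2L1 had 545 in pTR and 544 in pTV for its leading probe set. CUL3 had 527 in pTR, below the lowest of the 24 replicated arrays (551), and 587 in pTV. Except for that CUL3 value, all pTR and pTV signals named here lie within the range of the 24 replicated arrays.

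Among markers of other cell types, LUM, a fibroblast gene, averaged 95.4 ± 15.6 in WT8 and 33.4 ± 8.72 in PRC3 (SD, n = 3 each, limma adjusted p = 0.000657, and 0.00149 without WT8 replicate 3), the comparison in which NFE2L1 fell. Of the 3 fibroblast markers that passed the filter, LUM was the 1 called there, where 3.26% of all genes rose. COL1A1 and DCN were not called, and COL3A1 did not pass the filter and reached 22.5 at most. The 4 fibroblast markers summed to between 97.6 and 283 over the arrays. Their part in the NFE2L1 difference was not tested.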
